A study of Arabidopsis thaliana with 4 samples.

Results

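Xyloglucan endotransglucosylase/hydrolase (XTH) genes encode enzymes that cut and rejoin xyloglucan, the hemicellulose that coats cellulose in the primary cell wall of Arabidopsis thaliana. By moving xyloglucan ends between chains they build new wall polymer into the network and loosen or reinforce the wall of growing cells, and some members mainly hydrolyse the chain. TCH4 (XTH22) is also a classic touch gene, whose mRNA is known to rise within minutes of touch, wind or handling and after brassinosteroid, auxin or temperature treatment. The 10 genes described here were picked by locus, as TCH4 and 9 relatives (XTH23, XTH24, XTH25, XTH17, XTH18, XTH19, XTH4, XTH15 and XTH31), out of 37869 loci in each count table. The other 23 XTH genes of the genome served for comparison.

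Polyadenylated RNA was sequenced from whole seedlings of 14 days grown on soil in long days. There were 2 libraries of Col-LUC, the background line, and 2 of tho2-8, a mutant of THO2 in that line, assigned by title because the genotype label reads Col-LUC for all 4. THO2 encodes a core subunit of the THO complex, which couples transcription to mRNA packaging and export. The labels say neither what the tho2-8 lesion is nor whether replicates were separate plants, so a p-value here reflects only how far libraries scatter, and that scatter may be technical. Totals ran from 17119534 to 17877941 counts, and 3 counts amount to 0.168 to 0.175 CPM (counts scaled to a common library total), a floor that covers counting error alone. THO2 mRNA measured 82.1 and 84.6 CPM (Col-LUC) against 109 and 100.1 CPM (tho2-8), which does not check the labels without knowing the allele. Photosynthetic shoot markers were abundant in every library (5 genes), and 14 of 16 root markers passed the filter on low counts.

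All 10 genes carry the stretch that codes for the conserved catalytic motif of the family, which holds the glutamates that cut and rejoin the sugar chain. The stretches are shown because they identify each member and show how far the copies differ where the protein is most constrained. Each runs 5′ to 3′ on the coding strand over 9 codons, read from TAIR10.1, and capitals mark bases unlike TCH4.
TCH4: gacgagatagatttcgagtttttaggg
XTH23: gacgagatTgaCttTgagttCttGggA
XTH24: gaTgagatTgatttTgagttCttGggT
XTH25: gacgaAatCgatttcgagtttCtTggT
XTH17: gaTgagatCgatttcgagttCttGggA
XTH18: gaTgagatTgatttcgagttCttaggA
XTH19: gaTgagatTgatttcgagtttttGggg
XTH4: gacgagatagaCttTgagttCCtTggA
XTH15: gacgagatagaCttTgagtttCtaggT
XTH31: gaTgagGtCgatAtcgagtttCtaggg
In 9 of the 10 genes the encoded residues were the same throughout the motif, and the 3 to 6 bases unlike TCH4 in 8 of them changed no residue. XTH31 was the exception, with 2 residues unlike the motif. The encoded proteins ran from 269 residues for XTH24 to 304 for XTH17. Over the whole coding sequence the closest pair of the 10 was XTH18 and XTH19, at 87.4% identity, followed by XTH17 and XTH18 at 85.6%. XTH20, not among the 10, was as close, at 85.6% with XTH18, 82.6% with XTH19 and 79.3% with XTH17. TCH4 and XTH23 were 79.2% identical, and TCH4 and XTH25 were 68.8% identical. The longest identical run between transcripts was 68 bases for XTH18 and XTH19, 51 bases for XTH17 and XTH19, and at most 30 bases between TCH4, XTH23, XTH24 or XTH25 and any other XTH gene. XTH20 shared runs of 44, 35 and 26 bases with XTH17, XTH18 and XTH19. Reads within such runs could be divided between XTH17, XTH18, XTH19 and XTH20 in counting. The deposited values of all 10 genes were whole numbers in every library.

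Several members sit side by side in the genome. TCH4 lies on chromosome 5 from 23307006 to 23308680 and XTH25 from 23304782 to 23306440, both on the minus strand, with 565 bases and no annotated gene between them. XTH24 (14819192 to 14820595), XTH18 (14825757 to 14827211) and XTH19 (14828712 to 14830224) follow one another on the minus strand of chromosome 4, with gaps of 5161 and 1500 bases and no annotated gene between them. XTH23 starts at 13128394 on chromosome 4, 363 bases from XTH14. Of the genes described here, only XTH17 is on chromosome 1, only XTH4 on chromosome 2 and only XTH31 on chromosome 3. XTH15, on chromosome 4, overlaps AT4G14120 on the opposite strand, so its values are uncertain if counting ignored strand. AT4G14120 stood between 0.65 and 2.41 CPM in the 4 libraries, below XTH15 in each.

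Per length of transcript, XTH4 was the most abundant of the 10 and XTH25 the least. XTH4, known from growing tissues, had a mean level of 236.5 CPM per kb over the 4 libraries (range 204 to 281). XTH24, also known as SEN4 and used as a marker of senescing and dark-treated leaves, followed at 156 (79.0 to 230.0), and the ranges of these neighbours overlapped. XTH31 stood at 48.8, TCH4 at 41.0, XTH19 at 29.5 and XTH18 at 14.6 CPM per kb, each overlapping the next in its range. XTH23 and XTH17 (10.4 each) and XTH15 (10.03) could not be ordered. XTH25 stood at 2.38 CPM per kb (0.696 to 4.29), below the range of every other member. XTH24 lay above the range of XTH31, whose highest library was at 70.4 CPM per kb. By genotype means, TCH4 was below XTH31 and XTH19 in Col-LUC (18.7 against 45.4 and 26.7 CPM per kb) and above both in tho2-8 (63.4 against 52.2 and 32.3). These ranks of means have limits. In Col-LUC replicate 2 TCH4 was above XTH19 (16.45 against 14.37 CPM per kb). In tho2-8 the ranges of TCH4 (52.32 to 74.47) and XTH31 (34.12 to 70.36) overlapped.

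**Figure D1:**
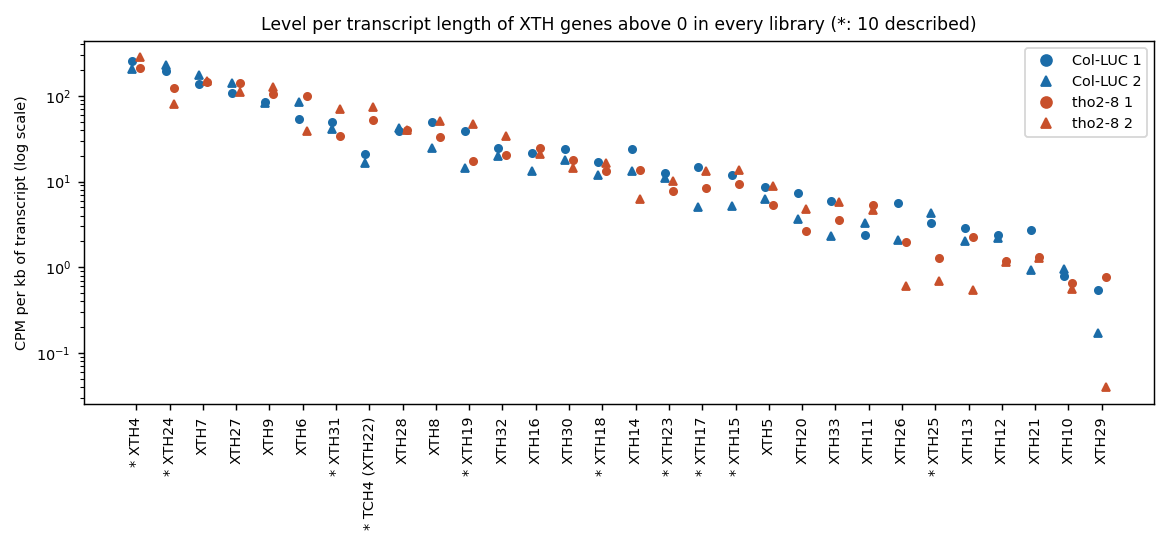
Level of each XTH gene above 0 in every library, in CPM per kb of its longest annotated transcript on a log axis, ordered by the mean over 4 libraries; circles and triangles are replicates 1 and 2, blue Col-LUC and red tho2-8, and asterisks mark the 10 genes described. XTH4 is at the top, XTH25 near the bottom, and for TCH4 both tho2-8 points lie above both Col-LUC points.

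The comparison asked how mRNA levels in tho2-8 seedlings differ from those of the parent line. TCH4 (AT5G57560) measured 33.3 and 26.2 CPM (Col-LUC) against 83.2 and 118 CPM (tho2-8). Both tho2-8 libraries were above both Col-LUC libraries, and the gap exceeded the spread within either genotype. The log2 fold change was 1.76 ± 0.22 (SE, n = 2 per genotype), or 3.39-fold, and edgeR's quasi-likelihood test left it short of the threshold of 0.05 (adjusted p = 0.0867 over all genes). DESeq2 called TCH4 higher (adjusted p = 6.28e-09), limma-voom did not (adjusted p = 0.107), and by unadjusted edgeR p it ranked 22 of 20975 tested genes. In edgeR without the filter on low counts it was called (adjusted p = 0.0354), as it was without tho2-8 replicate 1 (0.000298) and without tho2-8 replicate 2 (0.00747), while without Col-LUC replicate 1 or 2 the adjusted p was 0.383 and 0.269. Its log2 fold change lay between 1.49 and 1.97 in all 12 alternatives. In whole seedlings, a change in the number of cells of a type and a change in RNA per cell cannot be told apart.

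XTH25 (AT5G57550), the neighbour of TCH4, went the other way. It measured 3.84 and 5.08 CPM (Col-LUC), from 67 and 86 counts, against 1.51 and 0.825 CPM (tho2-8), from 27 and 15 counts. Both tho2-8 libraries were below both Col-LUC libraries. The log2 fold change was -1.93 ± 0.46 (SE), 3.81-fold lower, at an adjusted p of 0.166 by edgeR and 0.0449 by DESeq2. Without tho2-8 replicate 1 edgeR called it (-2.45, adjusted p = 0.0479). It did not with any other library left out, with values of -1.55 to -2.12 and adjusted p of 0.35 to 0.389. There were 8.67 and 5.15 TCH4 counts per XTH25 count (Col-LUC) against 55.1 and 144 (tho2-8), a ratio within each library that does not depend on scaling. XTH13, the next gene in the row 686 bases beyond XTH25, measured 3.15 and 2.24 CPM (Col-LUC) against 2.52 and 0.605 CPM (tho2-8), so its genotypes overlapped.

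The 250 bases before the annotated starts of TCH4 and XTH25 are shown because the estimates for these adjacent genes lay in opposite directions. With all 4 libraries edgeR called neither gene. These windows were read for description, without a test. They were read 5′ to 3′ on the minus strand of TAIR10.1, at chr5:23308681-23308930 for TCH4 and chr5:23306441-23306690 for XTH25, and capitals mark matches to a searched motif.
TCH4: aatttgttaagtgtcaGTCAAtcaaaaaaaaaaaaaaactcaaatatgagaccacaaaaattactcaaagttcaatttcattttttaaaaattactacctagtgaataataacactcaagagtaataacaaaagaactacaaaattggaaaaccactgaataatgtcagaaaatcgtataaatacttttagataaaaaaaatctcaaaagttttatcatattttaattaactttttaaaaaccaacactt
XTH25: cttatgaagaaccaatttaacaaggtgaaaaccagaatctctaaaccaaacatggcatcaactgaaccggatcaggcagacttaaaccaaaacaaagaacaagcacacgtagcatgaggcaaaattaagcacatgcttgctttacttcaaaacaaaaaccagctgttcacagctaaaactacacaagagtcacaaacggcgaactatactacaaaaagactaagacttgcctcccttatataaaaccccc
Short motifs of stress and light promoters were searched on both strands, none of which contains another: CGCGTT (rapid stress response element), CACGTG (G-box) and TTGAC (W-box core). TTGAC was in the window of TCH4, on the reverse strand at position -234 from the start, and in 6 of the 10 windows in all, against 44.9% of the 27443 windows of protein-coding genes. CGCGTT was in the window of XTH18 alone, against 2.59% of all windows, and CACGTG was in 0 of the 10, against 6.49%. The XTH25 window held none of the 3.

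XTH24 (AT4G30270) measured 233 and 278 CPM (Col-LUC) against 150.1 and 95.6 CPM (tho2-8). Both tho2-8 libraries were below both Col-LUC libraries, and the tho2-8 libraries differed 1.57-fold from each other. The log2 fold change was -1.06 ± 0.25 (SE), 2.08-fold lower, at an adjusted p of 0.158 by edgeR, 0.169 by limma-voom and 0.00201 by DESeq2. Without tho2-8 replicate 1 edgeR called it (-1.44, adjusted p = 0.0212), and without tho2-8 replicate 2 it did not (-0.76, adjusted p = 0.442). XTH18 and XTH19, the next genes in the row, did not separate the genotypes. XTH24 had 10.97 and 18.7 counts per XTH18 count in Col-LUC and 8.92 and 4.59 in tho2-8.

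XTH23 (AT4G25810), the closest relative of TCH4 by coding sequence, did not follow it. It measured 17.1 and 15.1 CPM (Col-LUC) against 10.7 and 14.0 CPM (tho2-8). Both tho2-8 libraries were lower, by a narrow margin for replicate 2. The log2 fold change was -0.38 ± 0.22 (SE), at an adjusted p of 0.45 by edgeR and 0.687 by DESeq2. XTH14, beside XTH23, measured 28.1 and 15.5 CPM (Col-LUC) against 15.8 and 7.37 CPM (tho2-8), with overlapping genotypes, and edgeR called it lower without tho2-8 replicate 1 (-1.60, adjusted p = 0.0282).

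**Figure D2:**
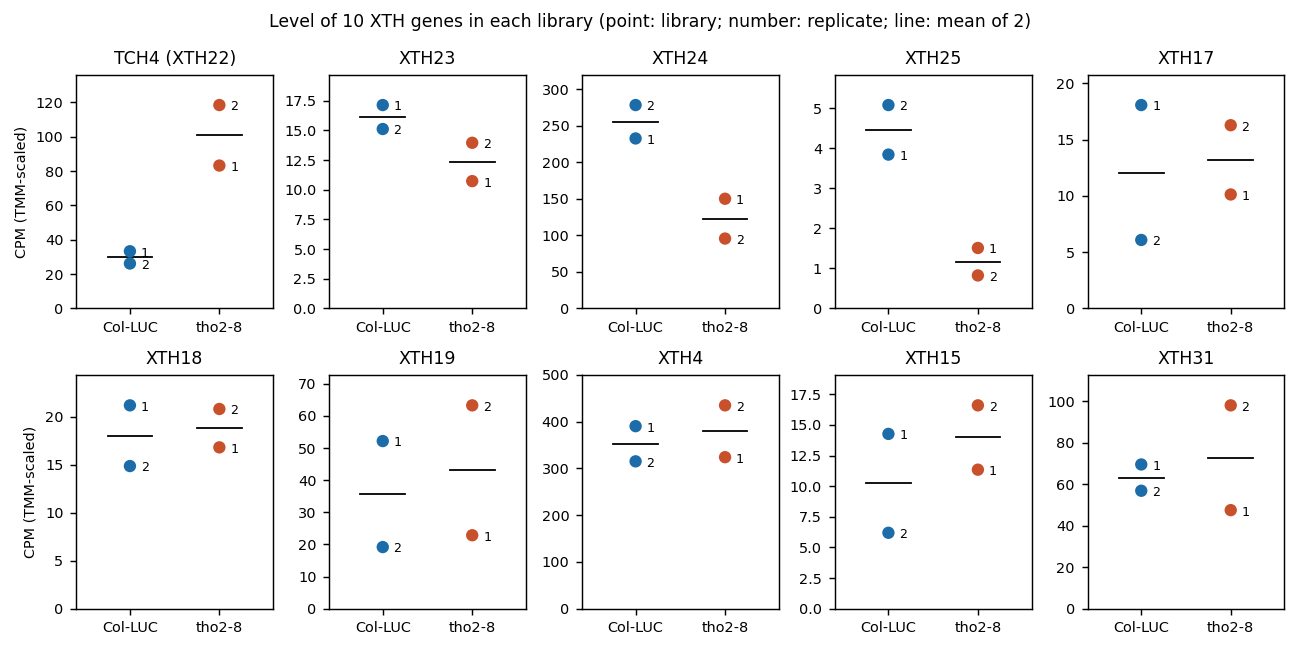
TMM-scaled CPM of the 10 XTH genes, 1 panel per gene with its own axis from 0; each point is a library, labelled with its replicate number, and the line is the mean of 2. TCH4 is higher in both tho2-8 libraries, XTH23, XTH24 and XTH25 are lower in both, and the other 6 overlap.

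In all, 0 of the 10 genes passed edgeR's test, beside 2 of the 20975 genes tested (0.00954%). At an unadjusted p under 0.05 edgeR gave 1 of the 10 higher (TCH4) and 2 lower (XTH24 and XTH25), against 8.4% higher and 7.18% lower over all tested genes. DESeq2 called the same 3, which compares with 2.65% of the 21123 genes to which it gave an adjusted p (1.28% higher and 1.37% lower). The genotypes did not overlap for 4 of the 10, close to the 48.5% of all tested genes. The median log2 fold change of the 10 was 0.12, beside 0.01 over all tested genes. These 10 were chosen with results of the series known, so the counts describe them and set nothing apart.

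The remaining 6 genes differed more within genotypes than between them. Among the genes described here, XTH17, XTH18 and XTH19 form the closest group by sequence. They are known mainly from roots, with XTH18 reported in growing root hairs and XTH19 responsive to auxin. XTH19 (AT4G30290) measured 52.2 and 19.2 CPM (Col-LUC) against 22.9 and 63.3 CPM (tho2-8). XTH17 (AT1G65310) measured 18.1 and 6.08 CPM (Col-LUC) against 10.1 and 16.3 CPM (tho2-8). XTH18 (AT4G30280) measured 21.2 and 14.9 CPM (Col-LUC) against 16.8 and 20.8 CPM (tho2-8). In each of the 3, Col-LUC replicate 1 and tho2-8 replicate 2 were the high libraries and Col-LUC replicate 2 the lowest. Within Col-LUC the libraries differed 2.72-fold for XTH19 and 2.97-fold for XTH17, against a genotype fold of 1.21 and 1.09. Log2 fold changes were 0.27 ± 0.56 for XTH19, 0.13 ± 0.49 for XTH17 and 0.06 ± 0.24 for XTH18 (SE), with adjusted p of 0.856, 0.927 and 0.927 by edgeR. All 3 turned negative when replicate 2 of either genotype was left out (Col-LUC first), with values of -0.45 and -0.25 for XTH17, -0.17 and -0.09 for XTH18 and -0.28 and -0.64 for XTH19.

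XTH17 and XTH18, on different chromosomes, also shared their proximal upstream sequence. The last 100 bases before each annotated start are shown, at chr1:24256954-24257053 on the plus strand for XTH17 and chr4:14827212-14827311 on the minus strand for XTH18 in TAIR10.1, with capitals marking the identical run.
XTH17: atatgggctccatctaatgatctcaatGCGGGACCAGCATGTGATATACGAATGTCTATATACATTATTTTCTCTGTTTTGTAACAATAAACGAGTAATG
XTH18: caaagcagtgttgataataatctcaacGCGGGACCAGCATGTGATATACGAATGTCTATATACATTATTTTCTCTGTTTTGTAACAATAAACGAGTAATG
The identical run covered the last 73 bases before the start in both. Among the 45 pairs of the 10 windows of 250 bases, the next longest identical run was 11 bases. Their values across the 4 libraries had the same order, from Col-LUC replicate 1 down through tho2-8 replicate 2 and tho2-8 replicate 1 to Col-LUC replicate 2. This order was not particular to the pair. XTH33, whose upstream window was not compared, had it too. XTH19, XTH4 and XTH15, whose windows lack the run, differed from it only in which high library came first. The transcripts of XTH17 and XTH18 also share an identical run of 47 bases, within which reads could be divided in counting. A link between the order and either shared sequence was not tested. The spread was wider for XTH17 than for XTH18, as Col-LUC replicate 1 exceeded replicate 2 by 2.97-fold and 1.43-fold.

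XTH4, XTH15 and XTH31 had the same high libraries. XTH4 (AT2G06850) measured 390.3 and 315 CPM (Col-LUC) against 324 and 435 CPM (tho2-8), with a log2 fold change of 0.11 ± 0.23 (SE) and an adjusted p of 0.865 by edgeR. XTH15 (AT4G14130), also called XTR7 and known as a marker of shade avoidance, measured 14.3 and 6.2 CPM (Col-LUC) against 11.3 and 16.6 CPM (tho2-8), with a log2 fold change of 0.45 ± 0.40 and an adjusted p of 0.631. XTH31 (AT3G44990), from the clade of the family in which xyloglucan hydrolases occur, measured 69.5 and 56.9 CPM (Col-LUC) against 47.5 and 98.0 CPM (tho2-8), with a log2 fold change of 0.20 ± 0.32 and an adjusted p of 0.803. The genotypes overlapped for all 3, and these values leave differences in either direction possible for each. XTH4 turned to -0.04 without Col-LUC replicate 2 and to -0.11 without tho2-8 replicate 2, XTH15 to -0.03 without Col-LUC replicate 2, and XTH31 to -0.40 without tho2-8 replicate 2. Without Col-LUC replicate 1 the value of XTH15 was 1.17, against 0.45 with all 4 libraries.

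**Figure D3:**
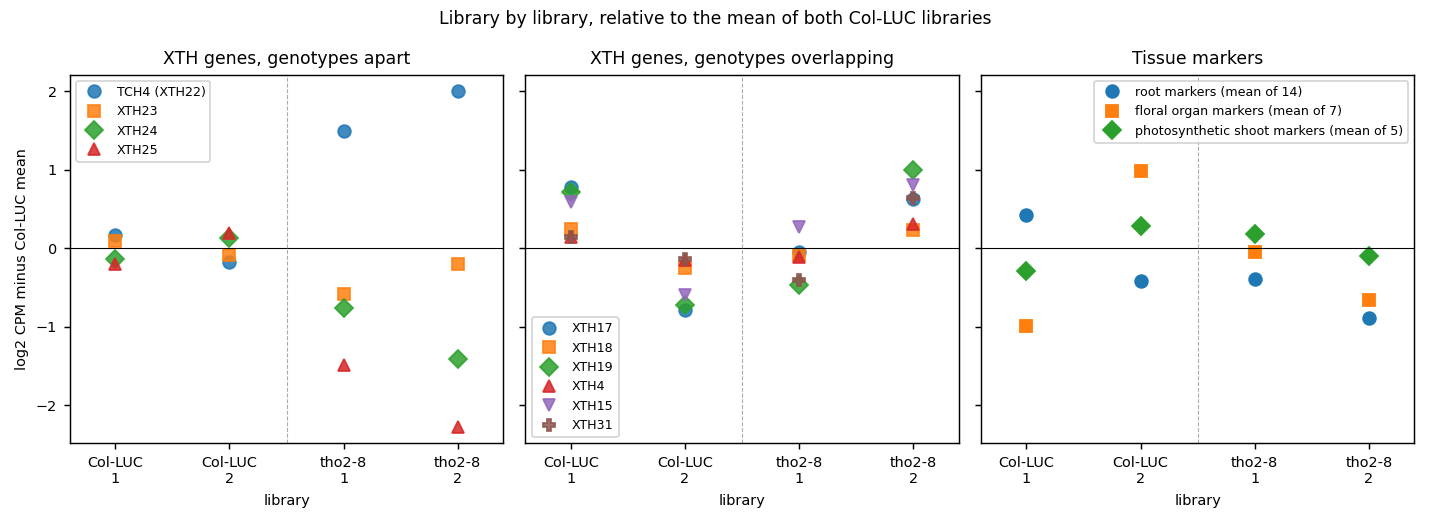
Log2 CPM of the 10 XTH genes (left and middle) and mean log2 CPM of tissue marker lists (right), relative to the mean of both Col-LUC libraries; each symbol is 1 gene or 1 list in 1 library. In the middle panel Col-LUC replicate 1 and tho2-8 replicate 2 are above 0 for all 6 genes, while the root markers are highest in Col-LUC replicate 1 and lowest in tho2-8 replicate 2.

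Col-LUC replicate 1 exceeded replicate 2 and tho2-8 replicate 2 exceeded replicate 1 for 8 of the 10 genes, all but XTH24 and XTH25, against 28.2% of all tested genes. Tissue markers varied from library to library too. Averaged over 14 root markers, log2 CPM minus the Col-LUC mean came to 0.42 and -0.42 (Col-LUC) against -0.39 and -0.89 (tho2-8). The whole list of 16, with 0 markers absent from all libraries, summed to 129 and 71.6 CPM (Col-LUC) against 73.8 and 46.0 CPM (tho2-8). In tho2-8 replicate 2 XTH19 was at its highest and the root markers at their lowest. The 7 floral organ markers came to -0.99 and 0.99 (Col-LUC) against -0.04 and -0.66 (tho2-8), and summed to 13.4 and 49.5 CPM against 28.6 and 19.4 CPM. The 5 photosynthetic markers came to -0.29 and 0.29 (Col-LUC) against 0.18 and -0.10 (tho2-8), summing to 12830 to 18930 CPM. XTH24 and XTH25 were both lower in tho2-8, and the median log2 fold change of the root markers was -0.65. From Col-LUC replicate 1 to 2 the root marker average went from 0.42 to -0.42. XTH24 went the other way, from -0.13 to 0.13, as did XTH25, from -0.2 to 0.2. From tho2-8 replicate 1 to 2 the root marker average, XTH24 and XTH25 all fell. CASP1 of the root endodermis was at a log2 fold change of -1.33 ± 0.42 (adjusted p = 0.228 by edgeR). The other root markers with the smallest p were CASP2 at -1.36 ± 0.46, COBL9 at -1.02 ± 0.42 and EXPA7 at -0.78 ± 0.44 (adjusted p of 0.247 to 0.442). Both CASP genes were called with tho2-8 replicate 1 left out (adjusted p of 0.0114 and 0.029), and were at -0.88 and -0.89 and not called with tho2-8 replicate 2 left out. Of the floral markers, AP1 was at -1.96 ± 0.78, SEP1 at 0.85 ± 0.50 and PI at -0.55 ± 0.36 (adjusted p of 0.30 to 0.509). With 1 library left out AP1 ranged from -2.71 to -0.31 and SEP1 from 0.25 to 1.87, each at its ends when a Col-LUC library was dropped. The part of tissue makeup in any of these values was not tested.

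Among the other 23 XTH genes 20 passed the filter on low counts, and of these edgeR called 0 and DESeq2 called 0. Over all genes edgeR called 0.00954% and DESeq2 2.65%, so 0 of 20 sets nothing apart. At an unadjusted p under 0.05 edgeR gave 2 higher and 0 lower, against 8.4% higher and 7.18% lower over all tested genes. XTH9 measured 129.9 and 126 CPM (Col-LUC) against 159 and 191 CPM (tho2-8), with a log2 fold change of 0.45 ± 0.17 and an adjusted p of 0.282 by edgeR. XTH11 measured 2.75 and 3.84 CPM (Col-LUC) against 6.21 and 5.39 CPM (tho2-8), at 0.81 ± 0.34. XTH12 was at -0.99 ± 0.42, XTH26 at -1.57 ± 0.69, XTH14 at -0.92 ± 0.41 and XTH30 at -0.37 ± 0.21, with adjusted p between 0.325 and 0.444. XTH14 was called with tho2-8 replicate 1 left out (-1.60, adjusted p = 0.0282) and stood at -0.46 with tho2-8 replicate 2 left out. XTH26 was at -0.69 when Col-LUC replicate 1 was dropped, -2.68 when tho2-8 replicate 1 was and -0.94 when tho2-8 replicate 2 was, and was called in none of these. The median of the 20 was -0.04. XTH1 and XTH2 had 0 counts in every library, and XTH3 had 3 counts, all in Col-LUC replicate 2. Of the 30 tested XTH genes, TCH4 had the highest log2 fold change and XTH25 the lowest. The lowest rank was not firm, as XTH25 (-1.93 ± 0.46) and XTH26 lay close beside their SE. Without tho2-8 replicate 1 XTH26 was the lower, at -2.68 against -2.45 for XTH25.

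**Figure D4:**
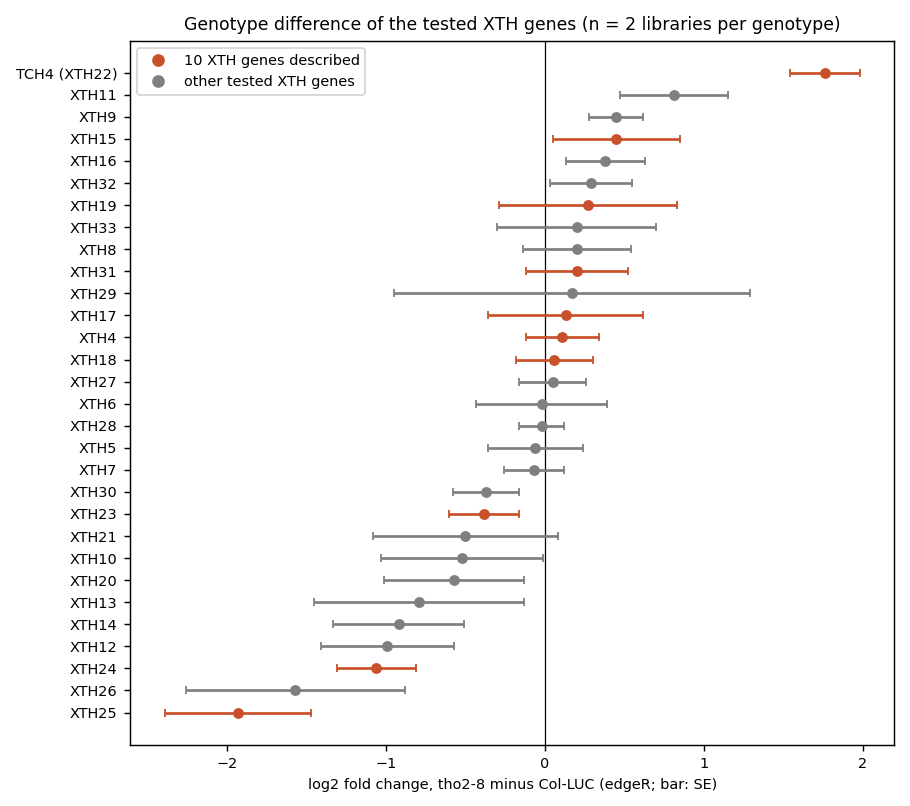
Log2 fold change of the 30 tested XTH genes, tho2-8 minus Col-LUC, from edgeR with n = 2 libraries per genotype; points are estimates, bars are SE, red marks the 10 genes described and grey the others. TCH4 at 1.76 and XTH25 at -1.93 are at the ends.

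Genes that make, trim or loosen the same wall polymer were read from lists. Of 13 xyloglucan synthesis genes, edgeR called 0 and DESeq2 called 1, higher in tho2-8, while 2 were higher and 0 lower by edgeR's unadjusted p under 0.05. Over all tested genes DESeq2 called 1.28% higher, and 8.4% were higher and 7.18% lower by the unadjusted p. Their median log2 fold change was 0.23, beside 0.01 over all tested genes, and 12 of 13 were above 0, as were 10792 of the 20975 tested genes. CSLC8, of the family of glucan synthases that make the xyloglucan backbone, measured 17.1 and 15.5 CPM (Col-LUC) against 31.5 and 36.7 CPM (tho2-8), with a log2 fold change of 1.06 ± 0.17 and an adjusted p of 0.112 by edgeR and 0.00538 by DESeq2. It was called by edgeR with tho2-8 replicate 1 left out (adjusted p = 0.0178), and without any other library it was not (adjusted p of 0.128 to 0.383). CSLC5 was at 0.65 ± 0.19, CSLC4 at 0.40 ± 0.19 and the fucosyltransferase FUT1 at 0.27 ± 0.17, with adjusted p of 0.211, 0.362 and 0.482 by edgeR. These 4 were picked for the smallest p of the list, so their separated genotypes set nothing apart. Over the whole list of 13, both tho2-8 libraries were above both Col-LUC libraries for 7 genes. They were below for 1 and overlapped for 5, against 25.8% above and 22.8% below over all tested genes. Of the 3 glycosidases that trim xyloglucan, edgeR and DESeq2 called 0, and 1 was higher by edgeR's unadjusted p under 0.05. The xylosidase XYL1 was at 0.40 ± 0.17, the galactosidase BGAL10 at 0.24 ± 0.22 and the fucosidase FUC95A at -0.28 ± 0.18.

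Expansins loosen the wall without cutting it. Of the 17 listed, all tested, edgeR and DESeq2 called 0, beside 0.00954% and 2.65% over all genes. By edgeR's unadjusted p under 0.05, 1 was higher, against 8.4% of all tested genes. The median log2 fold change was 0.08. EXPA8 measured 53.3 and 46.1 CPM (Col-LUC) against 77.2 and 68.4 CPM (tho2-8), at 0.55 ± 0.16 with an adjusted p of 0.20 by edgeR. EXPA10 was at 0.28 ± 0.17, EXLA2 at 0.97 ± 0.50 and EXPA9 at -0.63 ± 0.32. EXLA2 was at 1.77 when Col-LUC replicate 1 was dropped, 0.46 when Col-LUC replicate 2 was and 0.28 when tho2-8 replicate 2 was. The replicate order of 8 of the 10 XTH genes was present in 11 of the 17 expansins and in 6 of the other 20 tested XTH genes, against 28.2% of all tested genes.

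TCH4 is one of the genes first cloned as touch-induced, with the calmodulin gene CAM2 (TCH1) and the calmodulin-like genes CML24 (TCH2) and CML12 (TCH3). CML24 measured 35.7 and 31.9 CPM (Col-LUC) against 67.9 and 89.3 CPM (tho2-8), with a log2 fold change of 1.22 ± 0.18 and an adjusted p of 0.096 by edgeR and 0.000109 by DESeq2. Without tho2-8 replicate 1 edgeR called it (adjusted p = 0.00289), and without any other library it did not (adjusted p of 0.0572 to 0.383). CML12 measured 58.7 and 67.2 CPM (Col-LUC) against 81.2 and 85.6 CPM (tho2-8), at 0.41 ± 0.15 (adjusted p = 0.278). CAM2 measured 29.1 and 21.0 CPM (Col-LUC) against 18.4 and 24.4 CPM (tho2-8), with overlapping genotypes, at -0.23 ± 0.23. Both tho2-8 libraries were above both Col-LUC libraries for CML24 and CML12, as for 25.8% of all tested genes. All 3 overlap a gene on the opposite strand. Among 14972 other genes with a mean log2 CPM of at least 3, the 5 nearest to TCH4 by distance of centred log2 CPM over the 4 libraries were AT4G27652, AR781, AHA10, QWRF3 and CML23, at distances of 0.244 to 0.362. CML23, the closest relative of CML24, measured 4.47 and 4.25 CPM (Col-LUC) against 15.8 and 21.4 CPM (tho2-8). Because the 5 were picked for their likeness to TCH4 over the same 4 libraries, their log2 fold changes, from 1.55 to 2.09, are a description without a test.

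Lists of hormone and light genes were described in the same way, and an action of these genes on XTH genes was not tested. Of 10 genes of brassinosteroid synthesis and response, edgeR and DESeq2 called 0, beside 0.00954% and 2.65% over all genes. At an unadjusted p under 0.05 edgeR gave 1 higher, against 8.4% of all tested genes. The median log2 fold change of the 10 was 0.23. BEE3, a brassinosteroid-induced bHLH factor, measured 15.2 and 17.4 CPM (Col-LUC) against 23.9 and 40.4 CPM (tho2-8), at 0.98 ± 0.27 with an adjusted p of 0.19 by edgeR. Without tho2-8 replicate 1 it was called (adjusted p = 0.00817), and without any other library it was not (adjusted p of 0.335 to 0.507). The biosynthesis gene BR6OX2 was at 0.38 ± 0.29, BEE1 at 0.44 ± 0.38 and the transcription factor gene BZR1 at 0.26 ± 0.16. Of 9 shade and PIF genes, edgeR called 0 and DESeq2 called 1, higher in tho2-8, and 1 was higher by edgeR's unadjusted p under 0.05, against 1.28% (DESeq2) and 8.4% (edgeR) of all tested genes, with a median log2 fold change of 0.33. PAR1, a shade-induced bHLH repressor, measured 5.96 and 4.61 CPM (Col-LUC) against 11.2 and 13.0 CPM (tho2-8), at 1.19 ± 0.27 with an adjusted p of 0.15 by edgeR and 0.0458 by DESeq2. PIL1 was at 1.04 ± 0.62, HFR1 at 0.43 ± 0.25 and FHL at -0.44 ± 0.25. PIL1 was at 1.85 when Col-LUC replicate 1 was dropped, 0.52 when Col-LUC replicate 2 was and 0.21 when tho2-8 replicate 2 was. XTH15, the shade marker among the 10, overlapped between genotypes.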

How the data were processed

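RNA-seq libraries of 4 seedling samples were analysed, 2 per genotype. The authors deposited a table of estimated counts by gene for each library, without normalisation. The submitters' processing notes name TAIR10 as the build and, as tools, Trimmomatic, HISAT2 2.1.0, featureCounts 1.6.3 as well as DESeq2 1.24.0. The sources used here do not give how strand and shared reads were handled in counting. Per the labels' protocols the library kit was stranded. About 2.1% of loci held fractional values, so values were rounded to whole numbers, with 0.5 going up. The 296 organelle loci were at 0 throughout.

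Genes passing filterByExpr were scaled by TMM and tested with edgeR 4.0.16 (glmQLFit and glmQLFTest, R 4.3.3) on genotype alone; calls needed a Benjamini-Hochberg adjusted p under 0.05 over 20975 genes. SE came from the F statistic. CPM use TMM-scaled totals, and log2 CPM a prior count of 2. Alternatives were DESeq2 1.42.0, limma-voom (3.58.1), other scalings, filters and blocks, and leaving out each library. Symbols, lengths and sequences come from the TAIR10.1 reference, which paired all 116 listed genes. Its chromosomes were not compared with the TAIR10 used by the submitters, and the tables hold no coordinates. Named were the 10 genes, THO2, the 4 smallest p per list (6 for other XTH genes) and the 5 genes nearest to TCH4. AT4G14120, XTH1, XTH2, XTH3, XTH13, XTH20 and XTH33 were chosen after their values were seen. Members and lists were chosen with earlier results of these data known. The chi-square per gene between replicates averaged 25.7 (Col-LUC) and 23.3 (tho2-8), beyond sampling noise, and 0 tables were identical.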

Additional observations from a re-analysis of the deposited data

How the results depend on the processing

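With all 4 libraries edgeR called 2 genes and 0 of the 10 XTH genes. DESeq2 called 560 and 3 (TCH4, XTH24 and XTH25), limma-voom 1 and 0, and edgeR without the filter on low counts 57 and 1 (TCH4). Leaving out 1 library gave from 0 to 701 genes and from 0 to 3 of the 10. With 1 library left in a genotype, that library is assumed to vary like the other genotype's. Other scalings and the CPM filter changed neither count. The replicate numbers do not mark a shared culture in the labels, and same-numbered libraries deviated with a correlation of -0.125 over genes. With the replicate block edgeR called 2 genes and 0 of the 10. With the numbers crossed, a choice made after seeing the data, it called 510 genes and 2 of the 10.

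TCH4, XTH23, XTH24 and XTH25 kept their direction in all 12 alternatives. Those that changed sign did so only with 1 library left out. Their log2 fold changes then ran from -0.45 to 1.12 for XTH17, -0.17 to 0.34 for XTH18, -0.64 to 1.16 for XTH19, -0.11 to 0.27 for XTH4, -0.03 to 1.17 for XTH15 and -0.40 to 0.61 for XTH31. They ran from -0.44 to 0.03 for CAM2, -0.29 to 0.89 for BEE1, -1.72 to 0.72 for SEP3, -0.54 to 0.19 for RCA, -0.05 to 0.53 for LHCA1, -0.15 to 0.37 for PSBO1 and -0.20 to 0.46 for GAPA. The cause was not tested. XTH25 rests on 15 to 86 counts per library.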
